A study of Mus musculus with 6 samples.

Results

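The microRNAs (miRNAs) miR-199 and miR-214 are made mainly in mesenchymal cells such as fibroblasts, smooth muscle cells and pericytes, and they were followed here through the prefrontal cortex of mice given plastic nanoparticles. The members were 6 mouse names (mmu-miR-199a-5p, mmu-miR-199a-3p, mmu-miR-199b-5p, mmu-miR-199b-3p, mmu-miR-214-5p and mmu-miR-214-3p), of which 5 occurred in the deposited table, on 8 of its 1115 entries. After entries with the same sequence were added up, these 8 entries were 4 of the 1013 distinct sequences. The names were chosen with the difference between the groups of these same libraries known. That difference is therefore given as a description, with no test.

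The libraries of small RNA came from brain tissue, the prefrontal cortex, of C57BL/6 males aged 30 weeks, with 3 libraries per group. The control group (CON) received water by oral gavage, listed as 0 mg/kg body weight, and the PS-NP group (TREAT_HIGH) received polystyrene nanoparticles (PS NPs) at 50 mg/kg, once a day for 6 months. The labels do not say whether each library came from a separate mouse, so the spread between libraries may be partly technical. The libraries held 6170654 to 9905746 reads. CPM below are the reads of a sequence per 1000000 reads of its library, with library sizes scaled by TMM. Each read stands for a whole small RNA, so no scaling by length is needed. The neuronal miRNAs miR-128-3p and miR-124-3p stood at means of 112800 and 43200 CPM over the 6 libraries, far above any member.

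miRNAs are cut from a hairpin precursor, whose arms give a 5p and a 3p strand. The strand that is loaded into an Argonaute protein pairs with messenger RNAs mainly through its seed, the bases 2 to 8. In mice, Mir199a-2 and Mir214 are transcribed together as part of Dnm3os, a long noncoding RNA that is switched on by the mesenchymal transcription factor Twist1 and is needed for normal growth of the skeleton. miR-199a-3p drives cardiomyocyte proliferation in rodents, and miR-214 is induced in the injured mouse heart. In brain, these miRNAs are regarded as products of vessel walls and of connective tissue such as the meninges rather than of neurons.

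The sequences show how few distinct molecules lie behind the 6 names. They are given 5′ to 3′ with the seed in capitals, as listed in the deposited table but written as RNA.
miR-199-5p: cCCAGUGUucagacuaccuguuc
miR-199-3p: aCAGUAGUcugcacauugguu
miR-214-3p: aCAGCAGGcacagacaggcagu
miR-214-5p: uGCCUGUCuacacuugcuguga
The 4 seeds differ from one another, and no other of the 1013 sequences carried any of them. Among the mature mouse miRNAs of the RefSeq table (GRCm38.p6), in which 5 of the 6 names were found, miR-761 has the seed of miR-214-3p and none outside the 6 names has one of the other 3 seeds.

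The miR-199-5p sequence stood on 3 entries with identical reads: 2 were named miR-199a-5p, and 1 was named miR-199b-5p with a suffix that marks a substitution. Below is the 5p arm of the Mir199b hairpin, to be read against the miR-199-5p sequence.
Mir199b 5p arm: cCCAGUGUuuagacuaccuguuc
The hairpin and the listed sequence differ by U10C, where the base of the hairpin comes first, then the position counted from the 5′ end, then the listed base. The same sequence matches Mir199a-1 and Mir199a-2 with 0 mismatches. The reads under the miR-199b-5p name are thus reads with the letters of miR-199a-5p, divided evenly among 3 entries. Of the 1013 sequences analysed here, 0 equalled the Mir199b 5p arm, and 0 held its bases 2 to 15. The difference lies outside the seed, which all 3 hairpins share.

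The miR-199-3p sequence stood on 3 entries, each named miR-199b-3p with a suffix for 1 base less at the 3′ end. It is 21 bases long, against 22 in RefSeq, where miR-199a-3p and miR-199b-3p are the same molecule. It matched all 3 miR-199 hairpins with 0 mismatches, so reads cannot be assigned to one of them, and the name miR-199a-3p was not used in the table. miR-214-3p equalled its RefSeq sequence. The listed miR-214-5p differed from the Mir214 hairpin by C22A, at its last base.

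The hairpins are shown with the stretches that correspond to the listed sequences in capitals, because their positions bear on which reads can share a transcript (RefSeq, GRCm38.p6).
Mir199a-2: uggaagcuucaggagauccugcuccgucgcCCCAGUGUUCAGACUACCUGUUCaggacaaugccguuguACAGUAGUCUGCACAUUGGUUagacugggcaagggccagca
Mir214: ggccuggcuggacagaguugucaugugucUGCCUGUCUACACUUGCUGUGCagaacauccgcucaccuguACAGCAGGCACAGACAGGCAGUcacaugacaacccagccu
Mir199a-1: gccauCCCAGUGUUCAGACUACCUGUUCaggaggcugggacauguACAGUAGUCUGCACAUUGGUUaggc
Mir199b: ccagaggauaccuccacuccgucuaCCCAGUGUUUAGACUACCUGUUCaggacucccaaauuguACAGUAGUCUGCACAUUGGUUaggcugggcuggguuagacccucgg
Mir199a-2 lies at chr1:162217814-162217923 and Mir214 at chr1:162223368-162223477, both on the plus strand and within annotated exon sequence of Dnm3os. The hairpins are 5444 bases apart. Both also lie on the opposite strand of an intron of Dnm3, which codes for a dynamin, a membrane-cutting GTPase. Mir199a-1 (chr9:21496495-21496564, minus strand) lies opposite an intron of Dnm2, and Mir199b (chr2:32318460-32318569, plus strand) opposite an intron of Dnm1, the other dynamin genes. Only Dnm3 has an annotated noncoding gene on the strand of the hairpins at these sites (GENCODE M21, GRCm38).

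**Figure D1:**
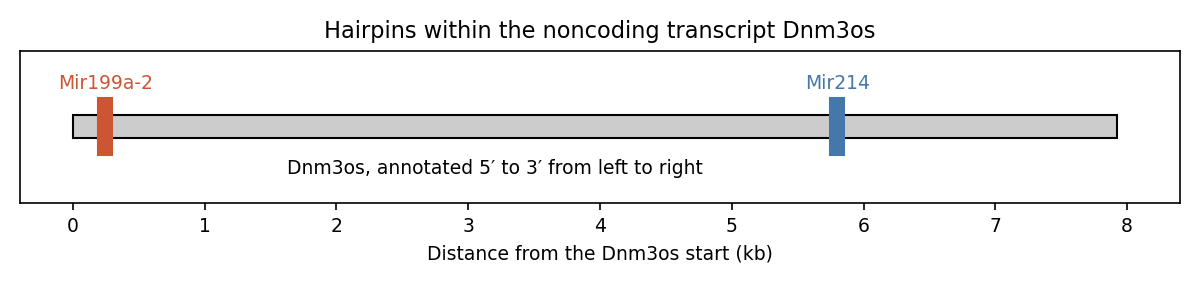
Map of Dnm3os (grey bar), with distance from its annotated start in kb on the horizontal axis and the hairpins Mir199a-2 and Mir214 as coloured boxes. Mir199a-2 begins 191 bases and Mir214 5745 bases after the start of the 7928-base gene.

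The 3p strand of miR-199 was the most abundant of the 4 sequences in each library, followed by the 5p strand of miR-199, then miR-214-3p, then miR-214-5p. miR-199-3p measured 46.4, 71.5 and 53.7 CPM in control libraries 1 to 3 and 92.1, 76.7 and 92.1 CPM in PS-NP libraries 1 to 3, from 333 to 1017 reads. Control library 2 was the highest control and came close to PS-NP library 2, the lowest of its group, and the groups did not overlap. In the order of mean CPM among the 772 sequences with a mouse name it was number 240, at 72.1 ± 19.1 CPM (SD, n = 6). Its neighbours, miR-362-5p at 73.3 ± 11.3 CPM and let-7i-3p at 69.8 ± 9.09 CPM, differed from it by less than their spread.

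miR-199-5p measured 33.0, 35.2 and 44.8 CPM in control libraries 1 to 3 and 54.6, 46.3 and 58.1 CPM in PS-NP libraries 1 to 3, from 241 to 642 reads. The groups did not overlap, but control library 3 and PS-NP library 2 lay next to each other, and their counting intervals overlap (39.7 to 50.4 and 42.0 to 51.0 CPM, exact Poisson 95%). Its mean over the 6 libraries, 45.3 ± 10.1 CPM, was number 279, between miR-28a-5p at 46.1 ± 6.01 CPM and miR-491-5p at 44.9 ± 6.93 CPM, which again differed by less than their spread. Poisson intervals cover counting error only. Reads without molecular identifiers are not independent molecules, so the intervals may be too narrow even for that error.

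miR-214-3p, which shares the Dnm3os transcript with Mir199a-2, rested on few reads. The control libraries 1 to 3 held 22, 20 and 6 reads (2.54, 2.93 and 0.968 CPM) and the PS-NP libraries 1 to 3 held 21, 23 and 53 reads (3.15, 2.56 and 4.80 CPM). Control library 3 was low and PS-NP library 3 high, and the other 4 libraries lay between 2.54 and 3.15 CPM. The groups overlapped. Its mean of 2.82 ± 1.23 CPM made it number 482, between miR-376c-3p at 2.96 ± 1.68 CPM and miR-466q at 2.82 ± 1.32 CPM. miR-214-5p was listed with 7 reads in PS-NP library 3 and at 0 in the other 5 libraries. Since whole values under 5 are nearly absent from the table (2 of 3769 values above 0 on single entries), a listed 0 may stand for a few reads. miR-214-5p had too few reads to enter the fit, and its place, number 731, was tied with other sequences seen in that library with the same count.

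**Figure D2:**
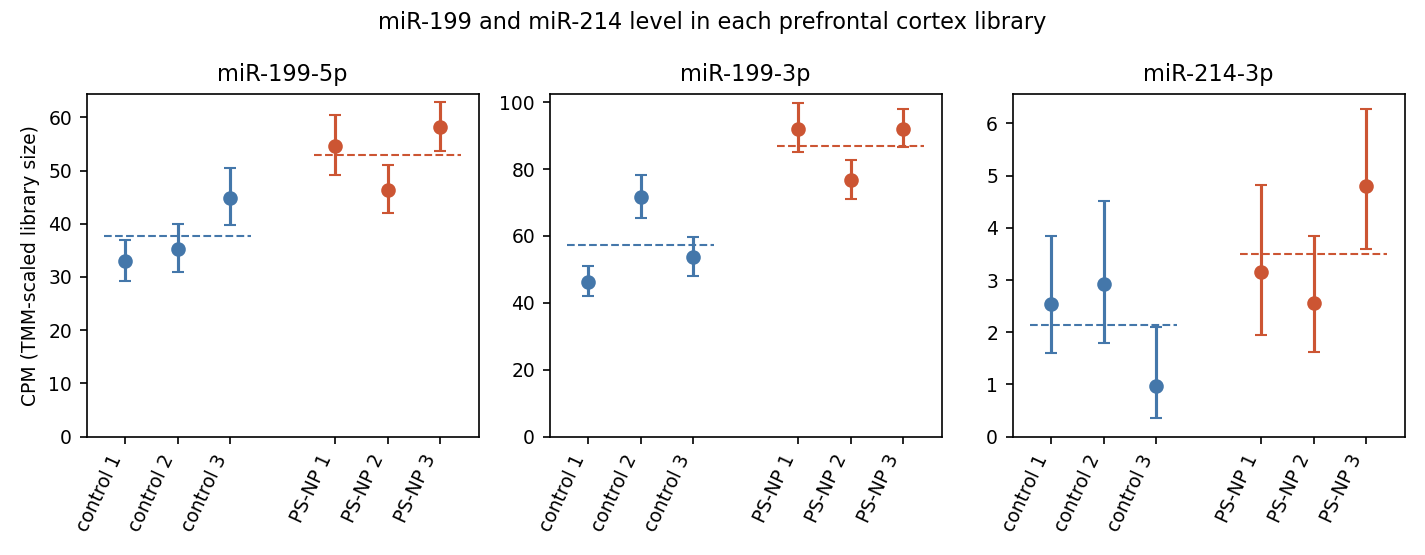
CPM on the vertical axis of miR-199-5p, miR-199-3p and miR-214-3p in each of the 6 libraries, with exact Poisson 95% intervals for counting error and dashed lines at the group means (control blue, PS-NP red). The groups do not overlap for the miR-199 strands and overlap for miR-214-3p, which has the widest intervals relative to its level.

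In the comparison that chose the names, both miR-199 strands had a higher mean in PS-NP cortex. The mean of miR-199-3p was 87.0 ± 8.89 CPM in PS-NP cortex against 57.2 ± 12.9 CPM in control cortex (SD, n = 3 each), which is 1.52 times, a log2 difference of 0.60 (95% interval 0.11 to 1.10, edgeR). That of miR-199-5p was 53.0 ± 6.07 against 37.7 ± 6.30 CPM, which is 1.41 times, a log2 difference of 0.49 (0.02 to 0.97). Together the strands summed to 79.3, 106.8 and 98.5 CPM in the controls and 146.7, 123 and 150.2 CPM in the PS-NP libraries. In bulk tissue a change in the number of cells of a type cannot be told apart from a change in the RNA of each cell.

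The mean of miR-214-3p was 3.50 ± 1.16 CPM in PS-NP cortex against 2.15 ± 1.04 CPM in control cortex, a log2 difference of 0.70 with an interval from −0.47 to 1.87. Without control library 3 the log2 difference was 0.36, and without PS-NP library 3 it was 0.37. Its point estimate was thus of the size seen for miR-199, with an interval that spans 0.

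Over all 639 sequences with enough reads, 0 passed an adjusted p of 0.05, or 0%, in edgeR's quasi-likelihood test, and 0 (0%) in DESeq2, with 15 (2.35%) at an unadjusted p under 0.05 in edgeR. In 2 of these 3 members all PS-NP libraries lay above all controls, where 5.01% of all tested sequences did. Because the names were picked on this contrast, nothing is read from that count. When reads were divided by library totals alone, the gap for miR-199-3p narrowed to 79.2 CPM in the highest control against 79.5 CPM in the lowest PS-NP library. Of all tested sequences 47.9% had a log2 difference above 0, and the median was −0.02.

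**Figure D3:**
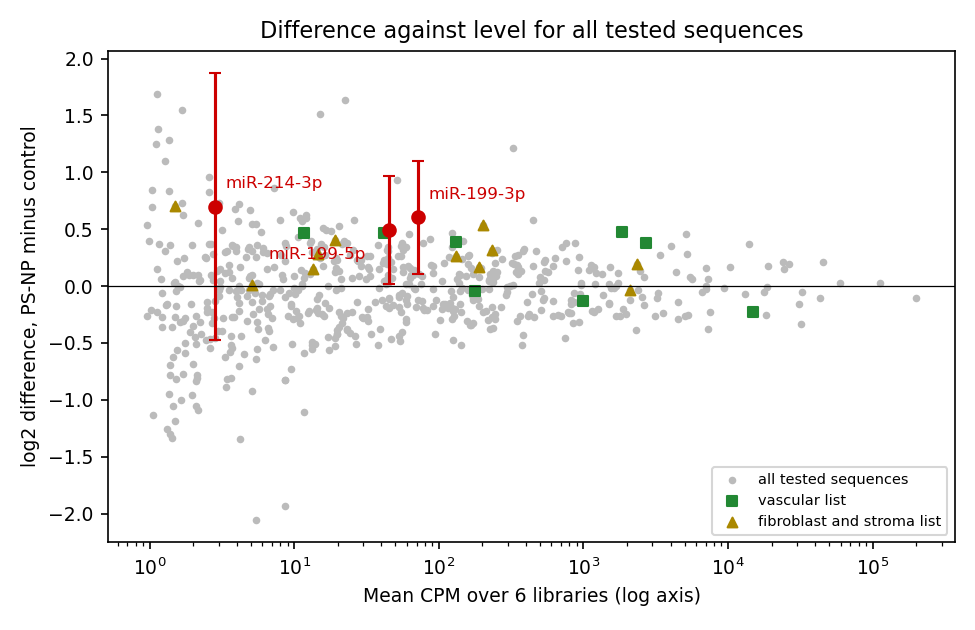
log2 difference between PS-NP and control (vertical axis) against mean CPM over 6 libraries (log horizontal axis) for the 639 tested sequences (grey), the vascular list (green), the fibroblast and stroma list (ochre) and the 3 tested members (red, with 95% intervals). The miR-199 strands lie at 0.49 and 0.60 among sequences of middle abundance, and miR-214-3p lies at 0.70 in the low range, where grey points spread widely.

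Levels of the members relative to each other within a library did not enter the choice of names and were tested. The 3p strand of miR-199 outnumbered the 5p strand in 6 of 6 libraries, by a mean of 1.57 times (log2 ratio 0.65 ± 0.26, SD, n = 6; exact sign-flip permutation test, two-sided, p = 0.03125, adjusted over 3 ratios 0.03125). That is the smallest p that 6 libraries can give. The test compares reads, and how efficiently each sequence is captured by adapter ligation was not tested.

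The 3p share of miR-199 reads was 58.5%, 67.0% and 54.5% in control libraries 1 to 3 and 62.8%, 62.4% and 61.3% in PS-NP libraries 1 to 3. The controls spread widely: the Wilson 95% intervals of control library 2 (63.5% to 70.3%) and control library 3 (50.5% to 58.4%) do not overlap. These intervals too cover counting error only. The 3 PS-NP libraries lay within each other's intervals and between the lowest and the highest control. Means were 60.0% ± 6.38 in controls and 62.1% ± 0.761 with PS-NP (SD, n = 3 each). The arm balance thus overlapped between the groups. The levels of both arms did not, but the names were chosen on that contrast, so nothing is read from the difference between the 2 measures. In control library 2 the 3p strand was high and the 5p strand was not.

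**Figure D4:**
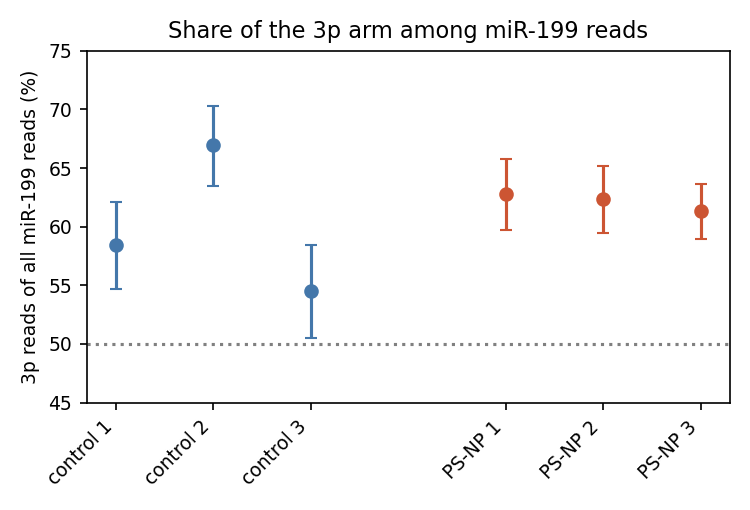
Percent of miR-199 reads that came from the 3p strand (vertical axis, from 45 to 75%) in each library, with Wilson 95% intervals, for control (blue) and PS-NP (red) libraries. All 6 points lie above the dotted line at 50%, and the controls, from 54.5% to 67.0%, span a wider range than the PS-NP libraries.

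Reads of miR-199-3p exceeded those of miR-214-3p by 25.8 times on average (log2 ratio 4.69 ± 0.52), and reads of miR-199-5p did so by 16.4 times (log2 ratio 4.04 ± 0.68). Both ratios were above 0 in 6 of 6 libraries (exact sign-flip permutation p = 0.03125, adjusted 0.03125 each). The 3 log2 ratios tested are not independent, since each follows from the others. Their tests also take the libraries as independent units, which the labels do not show. Although Mir199a-2 and Mir214 lie on one transcript, the miR-199-3p reads also include whatever Mir199a-1 and Mir199b contribute, which counts cannot separate. The miR-199-5p reads likewise include whatever Mir199a-1 contributes, but their letters differ from the Mir199b 5p arm, which no listed sequence equalled. The ratio of miR-199-3p to miR-214-3p was 26.9 in controls and 24.7 with PS-NP. miR-214-3p made up 3.11%, 2.67% and 0.972% of the reads of these 3 sequences in control libraries 1 to 3 and 2.10%, 2.04% and 3.10% in PS-NP libraries 1 to 3, so the groups overlapped in this measure too. The Wilson 95% interval of control library 3, 0.446% to 2.11%, overlaps those of control libraries 1 (from 2.06%) and 2 and of PS-NP libraries 1 and 2. It does not overlap that of PS-NP library 3, 2.38% to 4.03%. No ratio or test is given for miR-214-3p over miR-214-5p, since the latter was listed at 0 in 5 libraries and the ratio would depend on the pseudocount.

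The miRNAs whose profile over the 6 libraries ran most like that of miR-199-3p included both strands of the smooth muscle miRNA miR-143. Likeness was the root mean square difference between log2 CPM profiles, each centred on its own mean, among 392 mouse miRNAs of at least 10 CPM. It was 0.14 for miR-143-5p, 0.18 for miR-152-3p, 0.20 for miR-203-3p, 0.20 for miR-3083-5p and 0.21 for miR-143-3p, against a median of 0.44 over all 392. The partner strand miR-199-5p stood at place 7 with 0.23. miR-143-3p measured 1972, 2705 and 2403 CPM in control libraries 1 to 3 and 2648, 2761 and 3825 CPM in PS-NP libraries 1 to 3. Like miR-199-3p, it was lowest in control library 1 and highest among the controls in library 2. miR-152-3p, which shares its seed with miR-148, measured 150.2, 175.3 and 170.9 CPM in controls and 219.8, 242.6 and 257.4 CPM in PS-NP libraries. miR-203-3p, a miRNA of skin and other epithelia, averaged 49.9 ± 7.97 and 60.0 ± 4.18 CPM, and miR-3083-5p 9.49 ± 0.303 and 14.7 ± 3.04 CPM (SD, n = 3 each). These profiles hold the group difference on which the names were chosen, and 1 of the 5 nearest remained among the nearest without PS-NP library 1, 2 without control library 1 and 3 without control library 2.

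The profile of miR-214-3p differed from that of miR-199-3p by 0.48, which was place 6 among 393 miRNAs set against miR-214-3p. Nearest to it was a sequence listed under miR-3473a and other names, each with a substitution, at 0.23. It was followed by miR-666-5p of the imprinted Dlk1-Dio3 region at 0.40, miR-331-5p at 0.43 and miR-873a-5p and miR-3475-3p at 0.44 each. The sequence under miR-3473a averaged 8.71 ± 2.37 CPM in control and 13.2 ± 3.11 CPM in PS-NP libraries, and miR-666-5p 218.8 ± 66.5 and 226 ± 71.3 CPM. The miR-214-3p profile rests on 6 to 53 reads per library, and the exact Poisson 95% interval of control library 3 ran from 0.355 to 2.11 CPM. Without control library 3, 3 of these 5 remained among the nearest, and without PS-NP library 1 or PS-NP library 3 it was 2.

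**Figure D5:**
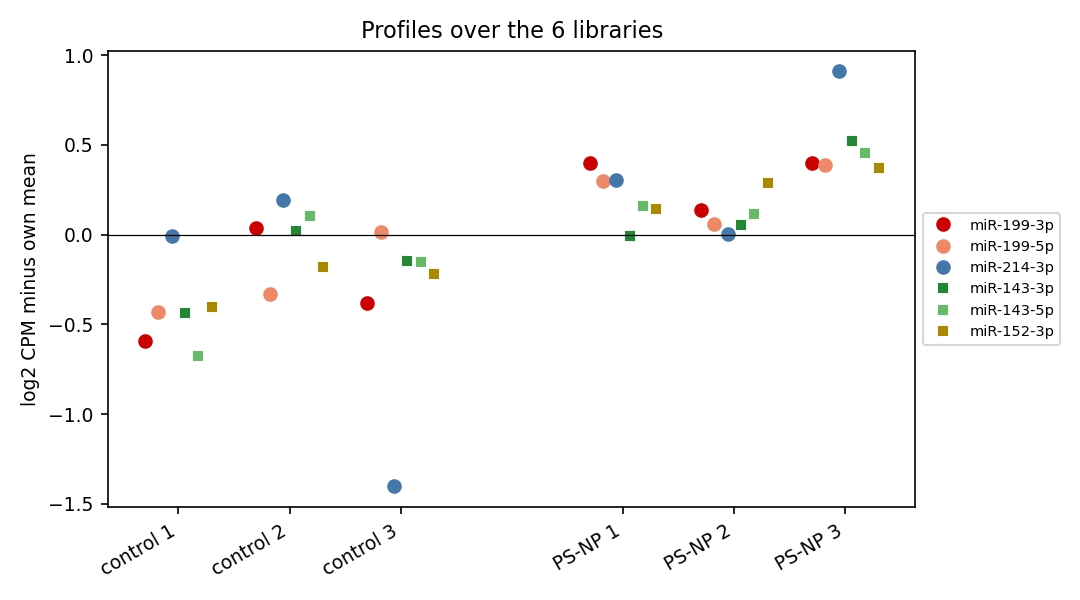
log2 CPM minus the miRNA's own mean (vertical axis) in each of the 6 libraries for the members miR-199-3p, miR-199-5p and miR-214-3p (circles) and for miR-143-3p, miR-143-5p and miR-152-3p (squares), shifted sideways for legibility. miR-199-3p and the miR-143 strands are lowest in control library 1, while miR-214-3p is lowest in control library 3, where it had 6 reads.

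Other miRNAs of vessel walls and connective tissue were read from lists, also drawn up with earlier results of these data known. Of the vascular list (endothelium, smooth muscle and pericytes), 8 of 8 members were tested and 0 passed the adjusted test. In this list 5 had a log2 difference above 0 (47.9% of all tested sequences did), with a median of 0.38. The list holds both strands of each hairpin, so its members are not independent. Its most abundant members were miR-139-5p, which neurons also make, with a log2 difference of −0.23 (interval −0.56 to 0.10), and miR-143-3p, with 0.38 (−0.07 to 0.84). The endothelial miR-126a-3p, named after its values were seen, measured 1409, 1388 and 1823 CPM in controls and 1863, 2187 and 2363 CPM in PS-NP libraries. All its PS-NP libraries thus lay above all controls, where 5.01% of all tested sequences did. The partner strand miR-126a-5p had a log2 difference of 0.39 (−0.11 to 0.88), and its groups overlapped. miR-139-5p went the other way, with 15960, 17040 and 15210 CPM in controls against 14980, 12940 and 13200 CPM in PS-NP libraries. Its partner strand miR-139-3p had a log2 difference of −0.04 (−0.73 to 0.64). miR-145a-5p, made from the same transcript as miR-143, averaged 1040 ± 229 and 952.8 ± 117 CPM, with a log2 difference of −0.13 (−0.58 to 0.32). The other strands of these hairpins are miR-145a-3p, also named after its values were seen, and miR-143-5p, a nearest profile above. Their log2 differences were 0.46 (−0.09 to 1.01) and 0.46 (−0.19 to 1.11). The intervals of all 4 miR-143 and miR-145a strands thus span 0. The summed list, most of it miR-139-5p, ran from 20710 to 22250 CPM in controls and from 19140 to 21000 CPM with PS-NP.

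Of the fibroblast and stroma list, 11 of 13 names were tested and 0 passed the adjusted test. In this list 10 had a log2 difference above 0 (47.9% of all tested sequences did), with a median of 0.26. The list holds both strands of miR-140 and of miR-483, so its members are not independent. Its most abundant members, miR-22-3p and miR-140-3p, had log2 differences of 0.19 (−0.17 to 0.56) and −0.04 (−0.41 to 0.33). miR-140 is best known from cartilage. The summed list ran from 4643 to 5589 CPM in controls and from 5057 to 5726 CPM with PS-NP, which overlap.

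Lists for other sources of RNA were set beside the miR-199 levels, and their part in the difference was not tested. Over all tested sequences 47.9% had a log2 difference above 0. The 7 blood sequences summed to 2416 to 3349 CPM in controls and 1884 to 2988 CPM with PS-NP, led by the lymphocyte miRNA miR-150-5p (1945 ± 314 and 1622 ± 345 CPM) and the red cell miRNA miR-486b-5p (838.2 ± 178 and 714.1 ± 251 CPM). Of the blood list, 5 of 10 names were tested, with 0 called, 3 above 0 and a median log2 difference of 0.02. The 3 were miR-142a-5p at 0.57 (−0.24 to 1.38), miR-223-3p at 0.43 (−0.33 to 1.20) and miR-451a at 0.02 (−0.75 to 0.78). The red cell miRNA miR-451a averaged 59.0 ± 29.0 and 59.6 ± 11.5 CPM, whereas the red cell miRNA miR-144-3p was at 0 in 5 of the 6 libraries. The choroid plexus and epithelium list had 8 of 11 tested, 0 called, 6 above 0 and a median of 0.29. It varied widely within both groups, from 2194 to 6030 and from 2530 to 8311 CPM, led by the choroid plexus miRNA miR-204-5p (3537 ± 1938 and 4504 ± 2584 CPM) and miR-34c-5p, a miRNA of ciliated cells (357.9 ± 111 and 534.2 ± 363 CPM). Among the controls, miR-204-5p measured 1760, 5603 and 3248 CPM in libraries 1 to 3. Like miR-199-3p there, it was lowest in library 1 and highest in library 2. Among the PS-NP libraries, miR-204-5p was highest in library 2, where miR-199-3p was lowest. The neuron list summed to 183500 to 193900 and 154500 to 213300 CPM (6 of 6 tested, 0 called, 4 above 0, median 0.04), and its leading members miR-128-3p and miR-124-3p had log2 differences of 0.03 (−0.37 to 0.42) and −0.11 (−0.56 to 0.35). The muscle list summed to 106.5 to 190.9 and 134.5 to 182.3 CPM (4 of 5 tested, 0 called, 3 above 0, median 0.18), with miR-133a-3p at 122.1 ± 39.9 and 118.6 ± 25.4 CPM and miR-1a-3p at 28.9 ± 4.06 and 34.8 ± 5.12 CPM.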

How the data were processed

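Per the labels' protocols, total RNA was extracted with Trizol, TruSeq Small RNA libraries were run on an Illumina HiSeq instrument, and ACGT101-miR removed adapter dimers, junk, low complexity reads, common RNA families and repeats. The genome build, miRBase release and mapping settings used by the authors are not stated in these sources. Raw values are estimated counts deposited by the authors: reads of a sequence listed on several entries are divided among them (78 of 1013 sequences). The norm values are a signal the authors scaled by 1 factor per library and served only as an alternative. Another 3 lines were left out (not analysed here).

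Reads were added up over entries with 1 sequence and rounded. The fit covered 639 sequences, those that reached 10 reads in at least 3 libraries, and was made with edgeR 4.0.16 (TMM factors 0.863 to 1.115, quasi-likelihood test, Benjamini-Hochberg), a procedure tested on simulated data. DESeq2 1.42.0 was an alternative. Ratios between members used reads + 1 and exact sign-flip permutation tests (scipy 1.17.1). A planned ratio of miR-199a-5p to miR-199b-5p was void, as both names carry 1 sequence, and so was one of miR-214-3p to miR-214-5p, which was listed at 0 in 5 of the 6 libraries. The rule named all members, the neighbours of each in the order of CPM, the 2 most abundant of each list and the 5 nearest profiles. Other named miRNAs were chosen after their values were seen. The members and lists were chosen with earlier results of these data known. The study's purpose, per its title, was to find miRNA markers of brain injury by nano-polystyrene.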

Additional observations from a re-analysis of the deposited data

How the results depend on the processing

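Under the 10 other settings of scaling, filter, tool, summing, replicate block and GC trend, the log2 difference of miR-199-3p ran from 0.54 to 0.62 and that of miR-199-5p from 0.48 to 0.52. That of miR-214-3p ran from 0.68 to 0.84 under 9 of them (it had too few reads for a mean of at least 100 reads). The setting that sums the sequence variants of a name repeated the main fit, so it is no separate check. With each library left out in turn the ranges were 0.48 to 0.79, 0.40 to 0.63 and 0.36 to 0.97, and the number of miRNAs called was 0 throughout. With the replicate number as a block the values were 0.62, 0.50 and 0.73. Whether the numbers pair the libraries was not settled. Deviations of same-numbered libraries from their group means correlated at 0.24, 0.15 and −0.17, and not every library correlated best with its own number. In groups of 3 such deviations sum to 0, so these correlations depend on each other and cannot decide the question. With the GC trend removed the values were 0.54, 0.52 and 0.84. Without summing, the log2 ratio of miR-199-3p to miR-214-3p was 3.11 and that of miR-199-5p to miR-214-3p 2.46, because only miR-199 reads are split over 3 entries. With 5 libraries the exact test cannot go below 0.0625, so the ratio tests no longer pass by construction. The log2 ratios then ran from 0.58 to 0.73 (miR-199-3p to miR-199-5p), 4.51 to 4.80 (miR-199-3p to miR-214-3p) and 3.78 to 4.14 (miR-199-5p to miR-214-3p). Of the 5 nearest profiles, 1 to 4 remained for miR-199-3p and 2 to 5 for miR-214-3p as libraries were left out, and 5 of 5 with DESeq2 size factors. Depth limits both miR-214 strands: miR-214-3p had 6 to 53 reads per library, and miR-214-5p could not be fitted.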
